A study of Mus musculus with 12 samples.

Results

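Class II olfactory receptor genes are the large branch of the mouse odorant receptor family, and this account covers the H3K9me3 regions that carry their names in neural progenitor cells with and without SETDB1. Members were all rows of the authors' deposited H3K9me3 table whose gene symbol is Olfr followed by a digit, on chromosomes 1 to 19. Rows starting between 102 and 105.5 Mb of chromosome 7 were left out, because that stretch holds the class I receptors. The rule gave 213 regions annotated to 191 genes, out of 50654 listed regions. The choice used names and positions, and no measured value. The table lists only regions that the authors selected, nearly all for a difference between the same libraries, so counts over listed regions describe that selection and are no support for a difference.

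Native ChIP-seq of H3K9me3 was made from 100000 nuclei per library of neurosphere cultures grown from the ganglionic eminence of C57BL/6 embryos at day E15.5. The study compared Nestin-KO animals with wild-type (WT) animals, 3 of each. The series title names SETDB1, and the labels give neither the allele nor whether Nestin stands for a Cre driver, so the knockout (KO) is used here as labelled. Nestin is a filament protein of neural progenitors. Sex is partly mixed with genotype in the H3K9me3 set, where the KO group held 3 males and the WT group 1 male and 2 females, and its part cannot be told apart from that of genotype. A second set of libraries, again 3 animals per genotype, mapped H3K27ac. All coordinates are in mm10.

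Each olfactory sensory neuron in the nose expresses 1 odorant receptor gene from 1 allele and keeps the others silent. The genes lie in clusters on many chromosomes, and in sensory neurons the silent copies are packed in heterochromatin that carries H3K9me3. SETDB1 is one of the enzymes that place this mark. The ganglionic eminence, the source of cortical interneurons, is a part of the embryonic forebrain and holds no olfactory sensory neurons.

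The start sites of 5 members show the sequence under the changes described below. Each line holds the 250 bases before the start site, 5′ to 3′, from the RefSeq promoter table of GRCm38.p6. Capitals mark TAATTA, a core bound by homeodomain proteins such as LHX2, and TATAAA or its reverse complement TTTATA, the TATA box letters. Olfr1453 (chr19:13028328-13028577, minus strand), Olfr111 (chr17:37529707-37529956, plus strand) and Olfr17 (chr7:107097217-107097466, plus strand) lie entirely inside regions with higher H3K9me3 in KO. Olfr275 (chr4:52825149-52825398, plus strand) is the 1 member whose stretch lies entirely inside a region with lower H3K9me3. Olfr212 (chr6:116506266-116506515, plus strand), the member with the largest decrease in the authors' table, has its region beside this stretch and not over it.
Olfr1453: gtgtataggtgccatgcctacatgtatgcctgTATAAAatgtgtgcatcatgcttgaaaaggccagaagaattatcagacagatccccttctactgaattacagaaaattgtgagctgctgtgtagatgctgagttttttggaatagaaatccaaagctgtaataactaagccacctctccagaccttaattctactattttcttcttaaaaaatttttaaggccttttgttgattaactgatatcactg
Olfr111: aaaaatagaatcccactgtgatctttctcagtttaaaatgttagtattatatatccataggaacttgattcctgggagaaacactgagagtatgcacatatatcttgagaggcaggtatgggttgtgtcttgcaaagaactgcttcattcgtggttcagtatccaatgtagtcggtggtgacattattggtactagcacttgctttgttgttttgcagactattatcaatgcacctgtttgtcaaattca
Olfr17: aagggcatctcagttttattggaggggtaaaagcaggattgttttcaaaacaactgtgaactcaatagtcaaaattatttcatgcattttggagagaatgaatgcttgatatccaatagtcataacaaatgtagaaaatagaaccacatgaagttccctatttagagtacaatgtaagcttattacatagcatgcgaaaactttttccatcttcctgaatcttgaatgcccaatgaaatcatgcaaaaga
Olfr275: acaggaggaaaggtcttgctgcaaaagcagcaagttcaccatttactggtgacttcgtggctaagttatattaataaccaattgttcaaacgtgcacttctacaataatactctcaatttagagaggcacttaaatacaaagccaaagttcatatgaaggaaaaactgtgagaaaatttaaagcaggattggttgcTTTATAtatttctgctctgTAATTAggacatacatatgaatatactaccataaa
Olfr212: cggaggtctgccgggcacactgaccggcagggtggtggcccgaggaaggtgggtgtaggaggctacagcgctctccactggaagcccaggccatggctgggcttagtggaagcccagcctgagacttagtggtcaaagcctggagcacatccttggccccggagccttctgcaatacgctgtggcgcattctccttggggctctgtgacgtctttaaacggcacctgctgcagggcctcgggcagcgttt

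The first 4 of these stretches are rich in A and T, like receptor promoters in general. Their G and C content was 36.4%, 37.6%, 33.6% and 34%, and that of Olfr212 was 63.2%. Over the 161 promoters found for 160 of the 191 member genes the median was 33.2%, against 33.6% for class II genes with no listed region and 52.4% for all 32851 promoters in the table. TAATTA stood in 13.7% of member promoters, in 19.8% of those of class II genes with no listed region and in 4.84% of all promoters. TATAAA stood in 38.5%, 39.7% and 12.4%. CCCNNGGG, the core bound by EBF proteins of olfactory neurons, stood in 4.35%, 2.38% and 11.8%. Both strands were searched, and overlapping matches to different motifs were each counted. Listed and unlisted class II promoters were thus closer to each other than to all promoters for each of the 3 motifs. A match is a description and not a binding site.

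Across the members, H3K9me3 was mostly listed as higher in KO, while most of the table was listed as lower. In the authors' deposited table, at an adjusted p of 0.05 or less, 200 of the 213 regions were higher in KO (28.9% of all listed regions were) and 13 were lower (71.1% of all). The authors' median log2 fold change, KO over WT, was 0.91 over the members, with the middle 50% of regions between 0.77 and 1.12, against -0.94 over all listed regions. The higher members ran from 0.47 at Olfr1160 to 2.02 at Olfr58, and their median of 0.93 compares with 0.81 over all higher regions. No gene had regions in both directions: 181 genes had only higher regions and 10 only lower ones.

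At the higher members the levels were low in WT and moderate in KO. Over all higher regions of the table the medians of the means were 55.9 in KO and 31.1 in WT. At the 200 higher regions the median normalised read counts were 50.95, 39.2 and 56.3 for the first, the second and the third value that the table lists for KO, and 24.8, 25.8 and 27.55 for the 3 WT values. The table does not say which animal a listed value belongs to. The authors' enrichment, a ratio, had a median of 1.695 in KO and 0.755 in WT at these regions, and of 0.75 and 1.27 at the 13 lower members. Higher members thus lay below an enrichment of 1 in WT at the median and lower members above it. The whole table had the same sides, with medians of 1.89 in KO and 0.91 in WT at higher regions. At its lower regions they were 0.78 and 1.68, so these sides were not particular to the members. In bulk chromatin, more cells carrying the mark and more mark per cell cannot be told apart.

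**Figure D1:**
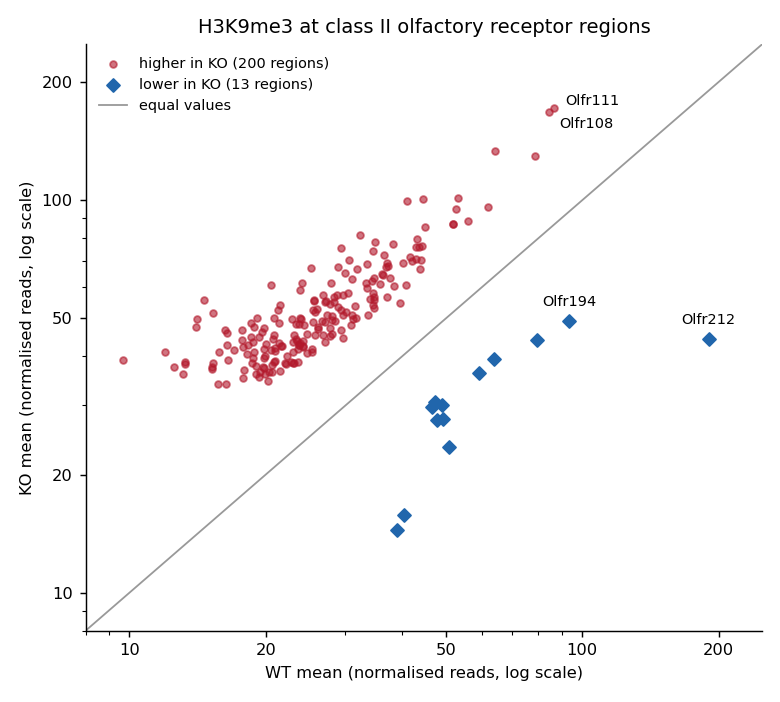
Mean normalised H3K9me3 reads of the 3 WT libraries (horizontal axis) and the 3 KO libraries (vertical axis) at the 213 receptor regions, both on log scales. Each point is a region, the grey line marks equal values, and the 200 higher regions form a band above it while the 13 lower ones, with Olfr212 farthest, lie below.

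The 3 KO values were not alike. Relative to the mean of the WT values, the median log2 ratio over the higher members was 0.96 for the first listed KO value, 0.64 for the second and 1.16 for the third. The third KO value was the highest of the 3 at 139 of the 200 regions and the second the lowest at 148. Over all 14622 higher regions of the table these counts were 7880 and 8389. Among the 200 members the third KO value stood above all 3 WT values at 199 regions, the first at 185 and the second at 154. These per-value counts were not made over the whole table. All 3 KO values lay above all 3 WT values at 144 members (20.2% of all listed regions) and all below at 8 (54.2% of all). Among higher regions only, the share was 72% of the members and 69.9% of the whole table, so it was not particular to the members.

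Depth differed between the listed values. Values were whole multiples of 1 step per library, and the reads recovered from that step had a median per member region of 20, 89 and 66 in KO and 14, 33 and 39 in WT. The least deep positions were therefore the first in each genotype, and the lowest KO level came with the deepest KO library. Whether depth had a part in these levels was not tested. Receptor genes include many near-identical copies. The sources used here do not say how reads matching several copies were placed, so values of single genes may share reads.

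With the spread between libraries included, few single regions passed. limma on log2(value + 1), adjusted with the Benjamini-Hochberg method over all listed regions, passed 13 member regions as higher (1.24% of all listed regions) and 1 as lower (14.9% of all). At an unadjusted p of 0.05 it gave 102 higher (11.5% of all) and 6 lower members (48.5% of all). limma-voom on the recovered reads passed 103 as higher (14.1% of all) and 10 as lower (58.0% of all). These shares are over both directions. Among regions higher in KO, limma passed 13 of 200 members and 627 of 14622 in all, and limma-voom 103 and 7133. Among lower ones limma passed 1 of 13 members and 7551 of 36032 in all, and limma-voom 10 and 29385. All 13 limma calls had an adjusted p between 0.0471 and 0.04998. The count of higher calls was 44 without the third KO value (5.89% of all) and 0 without any 1 of the 5 others. Over all listed regions the higher calls then were also 0, except for 10 (0.0197%) without the third WT value.

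How much of the whole table was lower depended on the scaling. Under median-ratio scaling over the listed regions, limma passed 27.7% of all regions as higher and 5.97% as lower, where the authors' scaling gave 1.24% and 14.9%. The median limma log2 difference of all regions moved from -1.04 to -0.23 and that of the members from 0.94 to 1.74. Of the members, 200 were then called higher and 1 lower. That scaling raised log2 differences by a median of 0.81 over all regions, so higher members staying higher under it is no support for their direction. Which scaling is right was not tested. The calls on single genes given below hold for these 6 libraries together and should be read with that limit.

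The 13 regions were annotated to receptors on chromosomes 2, 7, 9, 11, 17 and 19. Olfr119 (chr17:37698501-37700400) had KO values of 79.0, 61.5 and 85.7 and WT values of 28.4, 33.6 and 26.1 normalised reads. Its log2 difference was 1.32 ± 0.31 (SE, n = 3 per genotype, limma adjusted p = 0.0471). Every KO value lay above the highest WT value, as at each of the other 12 regions. limma chose these regions on the same values, so this follows largely from the choice and is no further support. Of all listed regions higher in KO, 69.9% had such values.

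Olfr292 (chr7:86686001-86687600) had KO values of 79.0, 54.1 and 68.1 and WT values of 28.4, 19.7 and 27.55. The log2 difference was 1.38 ± 0.33 (SE, limma adjusted p = 0.0471). It lies in a run of 4 receptor regions on chromosome 7, all higher, apart from the large run on that chromosome. Olfr17, a receptor also known as P2 and much used to study receptor choice, had a region over its gene (chr7:107097801-107100400) with KO values of 81.5, 89.8 and 127 and WT values of 37.2, 47.6 and 38.4. That gave 1.24 ± 0.30 (SE, limma adjusted p = 0.0471). The neighbouring region over its start site (chr7:107096201-107097500) had KO values of 58.6, 32.3 and 58.8 and WT values of 7.09, 15.6 and 19.6. It had a log2 difference of 1.81 ± 0.55 and missed the threshold (limma adjusted p = 0.0506). At both regions the groups did not overlap.

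Olfr108 (chr17:37445401-37448600) had one of the highest read counts per region among the higher members, with KO values of 153, 163 and 188 and WT values of 74.45, 96.8 and 81.9. Its log2 difference was 0.99 ± 0.25 (SE, limma adjusted p = 0.0471). Olfr111 nearby (chr17:37529601-37533400) had KO values of 168, 146 and 199 and WT values of 79.8, 116 and 63.8, and missed the threshold at 1.01 ± 0.30 (SE, limma adjusted p = 0.0502). Olfr112 (chr17:37568501-37571700) had KO values of 117, 114 and 169 against 70.9, 62.3 and 59.45 (1.02 ± 0.28, SE, limma adjusted p = 0.0480). These 3 neighbours had more reads in WT than a typical higher member, whose WT mean had a median of 25.2 normalised reads and a range of 9.66 to 86.7. Counts are per region and not corrected for length, and these regions were long, at 3200, 3800 and 3200 bp against a median of 1200 bp. Their WT enrichment was 0.86, 0.89 and 0.81, near the median of 0.755 over the higher members and below 1.

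Other regions that passed had little signal in WT. Olfr389 (chr11:73781901-73783300) had KO values of 66.2, 33.6 and 67.2 and WT values of 8.86, 13.9 and 21.0, a log2 difference of 1.87 ± 0.50 (SE, limma adjusted p = 0.0479). Olfr125 (chr17:37833701-37834700) had KO values of 71.3, 39.7 and 43.7 and WT values of 8.86, 19.7 and 17.4 (1.71 ± 0.49, SE, limma adjusted p = 0.0488). With limma-voom these 2 missed the threshold (adjusted p of 0.0814 and 0.0521), and the other 11 passed. Olfr476 (chr7:107967301-107968900) had KO values of 63.7, 51.45 and 67.2 and WT values of 12.4, 17.2 and 31.9 (1.62 ± 0.42, SE, limma adjusted p = 0.0473).

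The remaining 5 had log2 differences of 1.02 to 1.37. They were Olfr836 (chr9:19121401-19123300), Olfr1453 (chr19:13026901-13028600), Olfr711 (chr7:106971501-106973000), Olfr3 (chr2:36814001-36815400) and Olfr1300-ps1 (chr2:111685701-111687000), a pseudogene named here after its values were seen. At Olfr1453 the KO values were 66.2, 68.0 and 77.3 and the WT values 35.45, 22.1 and 34.1. At Olfr836 the KO values spread from 56.2 to 107 and the WT values from 28.4 to 34.8. The largest fold change in the authors' table, at Olfr58 (chr9:19780901-19781900), rested on KO values of 35.7, 27.9 and 53.8 and WT values of 3.55, 13.1 and 12.3. The first WT value there is 2 recovered reads, and limma did not pass it (adjusted p = 0.0750).

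**Figure D2:**
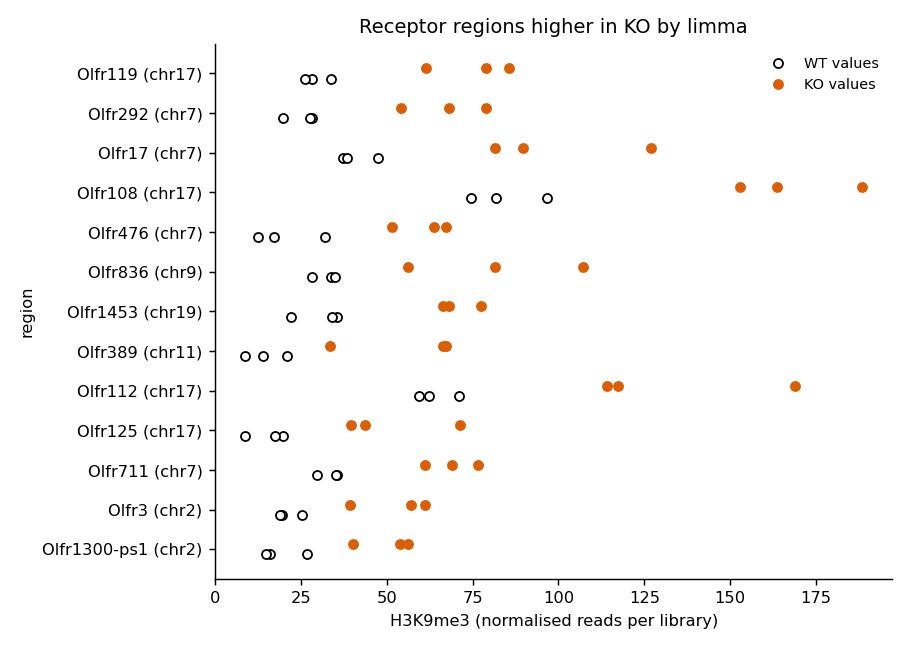
Normalised H3K9me3 reads in each of the 3 KO (filled) and 3 WT (open) libraries at the 13 receptor regions that limma passed as higher in KO, 1 row per region. In every row the 3 KO values lie to the right of the 3 WT values, which follows largely from the choice by limma. Read counts, not corrected for region length, are highest at Olfr108 and Olfr112.

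Higher regions were found in receptor clusters on most of the member chromosomes. Grouped into runs with gaps of up to 1 Mb, the 213 regions fell into 24 runs on 13 chromosomes. The 6 runs of 10 or more regions held 165 regions, 159 higher and 6 lower, and the medians of their authors' log2 fold changes lay between 0.86 and 1.01. Of the 16 runs with more than 1 region, 12 held higher regions only. Of the 8 lone regions, 6 were lower and 2 higher.

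**Figure D3:**
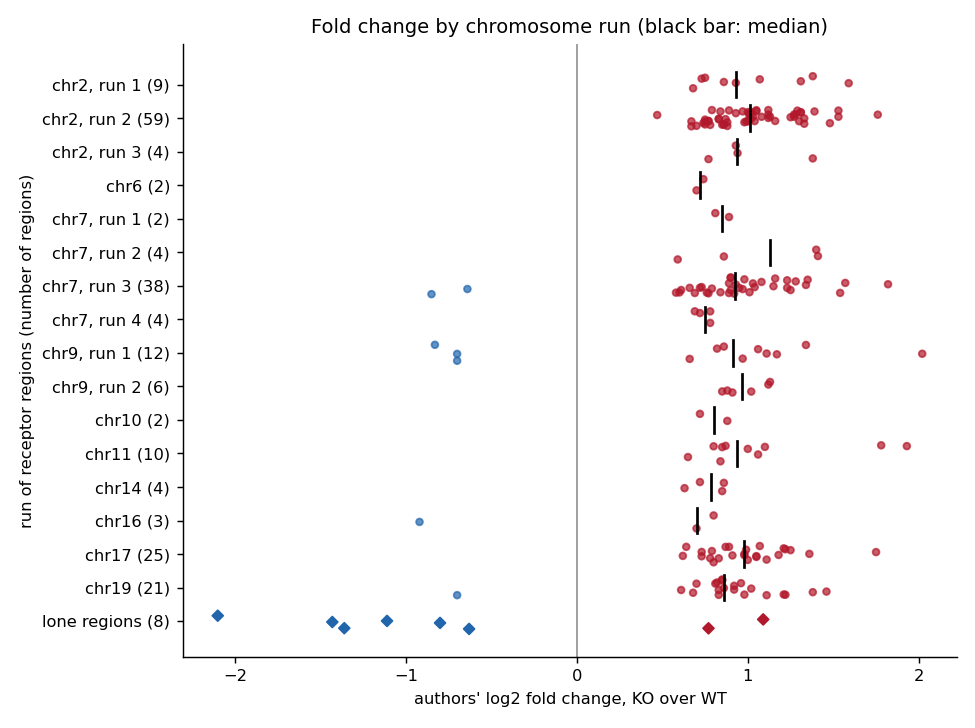
The authors' log2 fold change (KO over WT) of every receptor region, 1 row per run of regions, with the number of regions in brackets and a black bar at the median. Points right of the grey line are higher in KO, and the blue points left of it are the 13 exceptions, 6 of them among the 8 lone regions in the bottom row.

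The largest run spanned 4.62 Mb of chromosome 2 (85647301 to 90266700) with 59 regions at 55 genes, all higher, at a median of 1.01. The stretch from 85 to 90 Mb held 55 of them at 51 genes, between 0.47 and 1.76. Their median values were 48.4, 36.2 and 52.95 normalised reads in KO and 21.3, 23.8 and 24.65 in WT. The groups did not overlap at 41 of the 55 regions, limma passed 0 and limma-voom 26. All KO values lay above all WT values at 20.2% of all listed regions and at 69.9% of those higher in KO. As higher, limma passed 1.24% of all listed regions and limma-voom 14.1%. Of the 14622 listed regions higher in KO, these were 627 and 7133. The region with the smallest limma p in the run, at Olfr1213 (chr2:88980801-88981800), had KO values of 63.7, 34.9 and 43.7 and WT values of 8.86, 10.7 and 22.5. Its groups did not overlap, and its log2 difference of 1.75 ± 0.54 had a limma adjusted p of 0.0520.

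Within that stretch the members were spread over all 5 Mb. Per Mb from 85 Mb on there were 4, 8, 14, 13 and 16 regions, with medians of 1.14, 1.035, 0.87, 0.88 and 1.035. Gaps between neighbouring regions had a median of 63.25 kb and reached 569.9 kb. The members were part of a larger set of regions with the same direction. The run on chromosome 2 also held 279 listed regions with no receptor symbol, 275 of them with no gene symbol at all, and 237 of the 279 (84.9%) were higher, at a median of 0.86. In the 1 Mb on either side 3 of 21 listed regions were higher, at a median of -1.15.

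**Figure D4:**
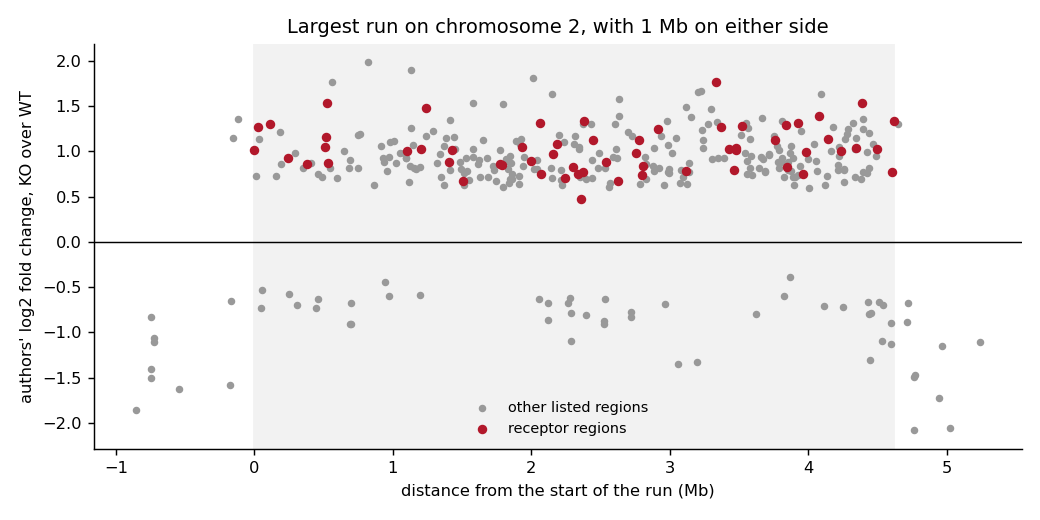
The authors' log2 fold change (KO over WT) of listed regions against distance in Mb from the start of the largest chromosome 2 run, with receptor regions in red, other regions in grey and the run shaded. All 59 receptor regions and 237 of the 279 others in the run lie above 0, and 18 of the 21 regions in the flanks lie below 0.

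The other large runs had the same direction, but their surroundings differed. On chromosome 17 (37445401 to 38275600) 25 regions at 22 genes were all higher at a median of 0.98, and 71.0% of the 31 RefSeq receptor genes in the run had a listed region, against 20.1% of 274 in the chromosome 2 run. Of the other listed regions there, 56 of 61 were higher, and so were 147 of 163 in the flanks. On chromosome 7 (106677401 to 108846200) 36 of 38 regions were higher, with 105 of 119 other regions inside the run and 76 of 85 in the flanks. So the edge seen on chromosome 2 was not seen at these runs.

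On chromosome 19 (12094001 to 13829200) 20 of 21 regions were higher at a median of 0.86, with 80 of 97 other regions and 55 of 71 in the flanks. On chromosome 9 (19121401 to 20328300) 9 of 12 were higher, with 57 of 69 other regions and 22 of 53 in the flanks. On chromosome 11 (73781901 to 74270600) all 10 were higher at a median of 0.935, with 24 of 28 other regions and 9 of 28 in the flanks. A second run on chromosome 2 (36421101 to 37202900), which holds Olfr3, had 9 regions, all higher at 0.93, with 35 of 44 other regions higher inside and 3 of 32 in the flanks. Over the 6 large runs 559 of 653 other regions (85.6%) and 312 of 421 flanking regions (74.1%) were higher, where 28.9% of the whole table was.

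Most class II genes had no listed region. RefSeq lists 1262 of them on chromosomes 1 to 19, 978 coding and 284 other, mostly pseudogenes, and 190 of the 191 member symbols matched. By symbol, 19.1% of coding genes and 1.06% of the others were listed. By position the contrast was gone: within 1 kb of the gene some listed region lay at 187 of the 978 coding genes (19.1%) and at 58 of the 284 others (20.4%). Of those, 176 and 48 had only higher regions. Within 3 kb the shares were 30.3% and 36.6%, with 262 and 83 genes having only higher regions and 31 and 19 only lower ones. So the lower share of other genes was in the symbols that the table gives. By position the shares were close within 1 kb, and within 3 kb that of the other genes was the higher one. Chromosomes 3, 5, 8, 12 and 13 have class II genes and no member.

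Regions sat near start sites, which is where the authors' annotation gives a gene name. Of the 213, 16 were classed as proximal promoter, 90 as within 1 kb and 87 as within 3 kb of a start site, and 20 as gene body. All 16, 86 of 90, 81 of 87 and 17 of 20 were higher, against 54.9%, 58.97%, 44.2% and 17.1% of all listed regions of the same classes. Their length had a median of 1200 bp and reached 3800 bp. The 250 bases before the start site lay wholly inside 37 of the 175 regions whose gene had a promoter in the table, 36 higher and 1 lower. The median log2 fold change of those 37 was 0.92, and it was 0.90 where the region did not touch them, so position over the start site made little difference to the median.

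Most genes had 1 region. Of the 191, 18 had 2 and 2 had 3, and regions of 1 gene share their source. Olfr121 on chromosome 17 had 3 regions, all higher, at 0.98, 0.79 and 0.80. The first (chr17:37745901-37746900) had KO values of 45.85, 37.5 and 44.5 and WT values of 21.3, 19.7 and 23.9, which do not overlap. The other gene with 3, Olfr18, was an exception in all of them.

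The 13 exceptions, lower in KO, were annotated to Olfr212, Olfr288, Olfr322, Olfr1411, Olfr504, Olfr194, Olfr1475, Olfr18, Olfr8 and Olfr275. Under median-ratio scaling, which raised log2 differences by a median of 0.81 over all regions, some of these changed sign. The limma difference was then above 0 at Olfr1475, Olfr275 and 2 of the 3 Olfr18 regions. Olfr212 (chr6:116501701-116505500) had WT values of 184, 176 and 210, the highest WT mean of any member, and KO values of 15.3, 37.1 and 80.7. All KO values lay far below all WT values. It was the 1 lower member that limma passed, with a log2 difference of -2.37 ± 0.52 (SE, adjusted p = 0.0471, and 0.0017 with limma-voom). The 13 other listed regions within 500 kb of it were all lower, and RefSeq has 4 other receptor genes in that distance.

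Olfr288 on chromosome 15, Olfr322 on chromosome 11 and Olfr1411 on chromosome 1 were lone regions as well. Olfr288 (chr15:98196701-98197700) had KO values of 15.3, 13.5 and 18.5 and WT values of 37.2, 41.8 and 42.05, with a limma adjusted p of 0.0573. Olfr322 (chr11:58665801-58666800) had KO values of 12.7, 11.3 and 19.3 and WT values of 37.2, 45.1 and 34.8, with 0.0623. Olfr1411 (chr1:92596301-92597500) had KO values of 25.5, 13.95 and 31.1 and WT values of 60.3, 53.3 and 38.4, with 0.0636. The groups did not overlap at any of these 3, limma did not pass them, and all 16, 12 and 15 other listed regions around them were lower.

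Olfr8 (chr10:78953601-78954600) and Olfr275 (chr4:52825101-52826500) were the remaining lone ones. Olfr8 had KO values of 28.0, 14.4 and 40.3 and WT values of 39.0, 58.2 and 46.4, which overlap, and 27 of 28 regions around it were lower. Olfr275 had KO values of 20.4, 30.1 and 41.2 and WT values of 51.4, 47.6 and 42.8, which do not overlap. Its limma log2 difference of -0.66 ± 0.36 did not pass (adjusted p = 0.120), and 7 of the 8 regions around it were lower.

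At 2 genes the exceptions lay mostly among higher regions. Olfr504 on chromosome 7 had 2 lower regions, and 55 of the 59 other regions around them were higher. Its region upstream of the gene (chr7:108567301-108568800) had KO values of 30.6, 54.5 and 47.1 and WT values of 65.6, 100 and 73.2, with no overlap (limma adjusted p = 0.0697). At the other one (chr7:108564301-108565300) the KO values of 5.09, 28.8 and 55.5 enclosed all 3 WT values of 51.4, 40.2 and 47.85. The nearest regions beyond the pair were higher, at 0.64 on one side and 0.70 on the other.

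Olfr1475 (chr19:13481001-13482500) had KO values of 33.1, 29.65 and 55.5 and WT values of 67.4, 63.15 and 60.9, with no overlap, where 59 of 71 other regions were higher (limma adjusted p = 0.0876).

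Olfr194 and Olfr18 had regions of both directions around them. Olfr194 (chr16:59121901-59123800) had KO values of 28.0, 49.3 and 70.6 and WT values of 67.4, 115 and 98.6, which overlap. Around it 10 other regions were higher and 15 lower. The closest region on its left, 5.401 kb away, was higher at 0.77, and the 2 on its right were lower at -0.74 and -0.63. Olfr18 on chromosome 9 had 3 gene-body regions (the first at chr9:20320201-20321500) at the edge of its run, between -0.70 and -0.83, with 22 higher and 24 lower regions around. The next regions on the far side, at Zfp560, were lower at -1.11 and -1.23.

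The third KO value stood highest in 11 of the 13 exceptions, so the loss was smallest there. It was also the highest KO value at 29517 of the 36032 lower regions of the whole table, so this was not particular to the exceptions. Its median log2 ratio to the WT mean over the 13 was -0.40, against -1.35 and -1.25 for the first and the second KO value. The first and second lay below all WT values at all 13 regions, and the third at 8. All 3 KO values lay below all WT values at 27479 of the 36032 lower regions of the whole table. Counts for each KO value alone were not made there.

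**Figure D5:**
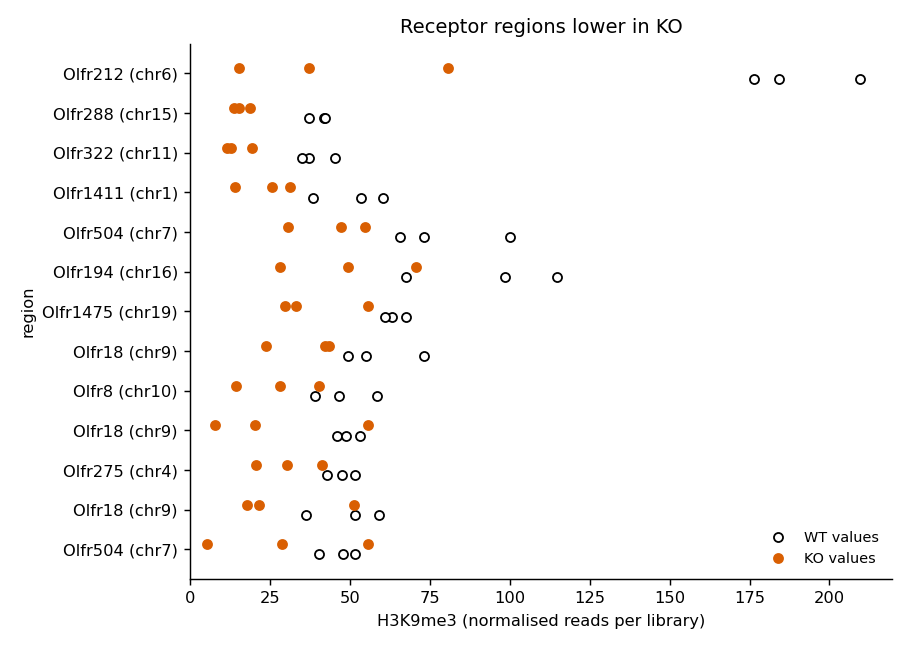
Normalised H3K9me3 reads in each of the 3 KO (filled) and 3 WT (open) libraries at the 13 receptor regions lower in KO, 1 row per region. The values do not overlap in 8 rows, Olfr212 has the widest gap, and in the bottom row, at Olfr504, the KO values lie on both sides of the WT values.

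Members mostly had the direction of the regions around them. Of the 200 higher members, 194 had a majority of higher regions among the other listed regions within 500 kb, and of the 13 lower members 10 had a majority of lower ones. Of all listed regions 71.1% were lower, and the same counts around regions other than the members were not made. The 6 large runs held 165 members, so many members share their surroundings. Higher members had a median of 36.5 other receptor genes within 500 kb (7 to 79) and lower members 16 (4 to 54). Of the 9 members with under 15 such neighbours, a limit chosen after the values were seen, 5 were lower and 4 higher. Olfr168, Olfr1507, Olfr5 and Olfr1349 were the 4 higher ones.

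Other chemosensory receptors in the table also were mostly higher. The class I receptors on chromosome 7 had 57 listed regions, 56 of them higher, at a median log2 fold change of 0.94. Type 1 vomeronasal receptors had 81 of 84 higher at 0.765, and type 2 had 163 of 187 higher at 0.79. The class II share, 200 of 213, lies among these, and differences between the families were not tested. Trace amine receptors, another family of the nose, had 0 of 15 genes listed.

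H3K27ac, the mark of active promoters and enhancers, was not seen at the members. In all 6 libraries 0 peaks overlapped a member region, while 0.882%, 1.44% and 0.746% of all listed regions had a peak in KO replicates 1 to 3 and 0.592%, 0.865% and 0.916% in WT. At such shares few peaks would fall on 213 regions, so the 0 is not a result about the members. Around the wider set of 1262 class II genes, within 1 kb, 1, 3 and 0 genes had a peak in KO and 3, 1 and 1 in WT. Olfr287, which has no listed region, had one in 5 of the 6 libraries, and Olfr536 was the 1 member gene with one, in WT replicate 1. Peaks per Mb in the 6 large runs were 1.36, 1.72 and 0.905 in KO and 1.36, 1.90 and 0.996 in WT, which overlap. The peak lists ranged from 11252 to 41705 autosomal peaks, and their depth is unknown.

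Marker genes of the labelled cell type mostly had peaks. Of 11 ganglionic eminence progenitor genes 9 had a peak in some library, and Nes, Pax6 and Fabp7 in all 6, while Dlx2 and Gsx2 had none. Of 8 genes of olfactory sensory neurons Gnal, Adcy3 and Cnga4 had a peak in some library, and Omp, Cnga2, Gng13, Rtp1 and Stoml3 had none. The 4 cortical excitatory genes had none, Pecam1 of 3 vascular genes had one in all 6 libraries, and 2 of 4 microglia and blood genes and 2 of 3 oligodendrocyte genes had one in some. Setdb1 had a peak in or within 1 kb of it in 5 of 6 libraries and no listed H3K9me3 region, which checks neither the deletion nor the labels.

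Genes that work with the receptors were mostly not listed. Of 18 genes of olfactory signal transduction 4 had regions. Ano2, the chloride channel of olfactory cilia, had 38 regions, all higher, and limma passed 1 of them (1.24% of all listed regions). It lay at chr6:125759201-125761700, with a KO mean of 107 ± 22.2 and a WT mean of 47.4 ± 15.2 normalised reads (SD, n = 3 each, limma adjusted p = 0.0497). Adcy3, the adenylyl cyclase of the cilia, Slc24a4, a calcium exchanger, and Pde1c, a phosphodiesterase, had 1, 4 and 5 regions, all lower. limma passed 0 of these 10 (14.9% of all listed regions) while limma-voom passed 8 (58.0% of all).

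Of 18 genes for receptor choice, 6 had regions. Ebf1, Ebf2, Ebf3, Nfia and Adcy3 had lower regions only, and Rcor1, a corepressor, a higher one. limma passed 0 of these 9 regions and limma-voom 7, all lower (14.9% and 58.0% of all listed regions were lower by these). Of 20 genes of H3K9 methylation 3 had regions: Atf7ip, the partner of SETDB1, with 9, and its relative Atf7ip2 with 2 were lower in all, and Uhrf1 had 1 higher. limma passed 3 of the lower ones (14.9% of all listed regions). The strongest at Atf7ip (chr6:136524201-136525800) had a KO mean of 17.8 ± 15.1 and a WT mean of 78.4 ± 8.41 normalised reads (SD, n = 3 each, limma adjusted p = 0.0471).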

How the data were processed

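H3K9me3 and H3K27ac ChIP-seq libraries of 12 animals were used, 3 per genotype and mark. Per the submitters' processing notes, reads were handled with Bowtie2 2.3.4.3 and MACS2 against mm10. For the H3K9me3 comparison, the tool that made it is not named in the sources used here. Per the file headers, the authors deposited 1 H3K9me3 table with normalised counts of the 3 libraries of a genotype joined in 1 cell, their mean as a signal, an enrichment ratio, log2 fold changes, and p-values with adjusted p-values. For H3K27ac the authors deposited peak lists whose columns, per the labels, are a score, an enrichment as a fold, and p and q on the -log10 scale.

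The authors' p-values were rebuilt from summed values for 38105 regions (largest log10 difference 0.00674), so they leave out the spread between animals. limma 3.58.1 in R 4.3.3 was therefore fitted on log2(value + 1) over all 50654 regions with a mean-variance trend and no covariates, and calls were made at an adjusted p of 0.05. Low values were whole reads within 0.1 reads for 100% of low values, and limma-voom was run on these reads as an alternative. Relative depth of the listed values was 17.1%, 100% and 51.9% in KO and 24.6%, 53.2% and 60.1% in WT.

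The members and lists were chosen with earlier results of these data known. Named were the 12 higher and up to 12 lower genes with the smallest limma p, the leading gene of each run of 10 or more regions, the 5 genes with the highest WT mean, genes with regions in both directions (none) or with a region that an H3K27ac peak overlaps (none), and the 3 genes with most regions. Promoters and genes came from RefSeq tables of GRCm38.p6, which mm10 coordinates match. Alternatives covered pseudocounts, filters, scaling, thresholds, gaps and left-out values.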

Additional observations from a re-analysis of the deposited data

How the results depend on the processing

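The limma counts depended on several settings. Shares in brackets are of all listed regions, both directions together. Higher members numbered 13 (1.24% of all regions), and 47 with a pseudocount of 5 (4.45%), 0 with no trend (0%), 200 with median-ratio scaling (27.7%) and 103 with limma-voom on recovered reads (14.1%). Leaving out 1 listed value gave 0 to 44, and 44 came without the third KO value (5.89%). Where it gave 0, all listed regions also had 0 higher calls, except for 10 (0.0197%) without the third WT value. Lower members numbered 1 (14.9%), and 3 with a pseudocount of 5 (33.3%), 0 with no trend (0%) and 10 with limma-voom (58.0%), and leaving out 1 value gave 0 to 12 (12 without the third KO value, 61.1%). By the authors' adjusted p with an absolute log2 fold change of at least 1, 86 members were higher and 4 lower. The authors' kind of test under median-ratio scaling gave 200 higher and 3 lower. Shares over all listed regions were not computed for these counts, so they describe the members only. Median-ratio scaling moved log2 differences of all regions by 0.81 and the members' median from 0.91 to 1.72. It set Olfr1475, Olfr18 and Olfr275 to 0.0802, 0.0956 and 0.144, above 0. From 85 to 90 Mb of chromosome 2 limma passed 0 of 55 higher regions (1.24% of all regions) and limma-voom 26 (14.1%). Counting peaks within 1 kb of member genes gave 1 H3K27ac peak in place of 0. The number of members with a KO mean above the WT mean stayed at 200 when any listed value was left out, an alternative added after seeing the data. Among members with under 15 other receptor genes nearby, 5 of 9 were lower within 500 kb and within 1000 kb, and 8 of 31 within 250 kb. Adding X-linked receptor regions changed nothing, because 0 were listed. No paired analysis was possible because the listed H3K9me3 values are not tied to animals and the H3K27ac counts come from no test. Titles of both genotypes share some first numbers, and the labels do not say what these mark.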
